A study of Mus musculus with 20 samples.

Results

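Gene desert accessible sites were taken here as the peaks of the WT list on chromosomes 1 to 19 that lay more than 100 kb from every protein-coding gene body of the RefSeq table for the mouse build GRCm38.p6 (mm10). The rule uses position only and found 12892 of 168442 peaks (7.65%, exact binomial 95% interval 7.53 to 7.78). The comparison sets were the other 155550 autosomal WT peaks and, within them, the 51202 nearer intergenic peaks that lay 1 to 100 kb from a gene body. Omni-ATAC, which uses a transposase to cut and tag open DNA, was applied to E14Tg2a mouse embryonic stem cells of strain 129/Ola and to clones made from them. Every one of the 20 samples carried an auxin-inducible degron on endogenous CTCF and a doxycycline-inducible Ctcf transgene. All were labelled as treated with indole-3-acetic acid and doxycycline, which the labels' protocols give as 500 µM and 1 µg/ml for 2 days, meant to remove endogenous CTCF and to switch on the transgene. The transgene was WT or carried R339Q, R342C, S354F, K365T, R377C, R377H, Q418R, R448Q or H455R, with 2 samples per genotype. The labels do not say how many clones stand for a genotype, nor whether the 2 replicates came from separate cultures.

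Gene deserts are long stretches of the genome without protein-coding genes. Many lie beside genes for transcription factors, signalling molecules and cell adhesion proteins, and they can hold enhancers that act on such genes over long distances. CTCF binds DNA through its zinc fingers and halts cohesin, and the loops that result help to set which distant elements and promoters meet. An accessible site in a desert can be an enhancer, a CTCF site, the promoter of a noncoding RNA or the regulatory part of a transposable element, and the peak lists do not tell these apart.

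Each genotype is represented by 1 peak list into which the authors pooled both replicates, so the spread between replicates is unknown and genotypes could not be tested against each other. All 9 mutant lists were compared with the same WT list. Strength below is the authors' MACS2 fold enrichment, the ratio of reads at the peak to the expected background, used only to rank peaks within a list. All intervals are 95% intervals for counting error over peaks. The WT list held 171719 peaks and the mutant lists 121032 (R339Q) to 159957 (H455R). The background coverage that the steps of the fold values imply, a measure of depth, was 5.96 in WT and 3.49 (K365T) to 5.45 (R448Q) in the mutants. On 10 of the 19 chromosomes the share of a list's peaks was shifted in 1 or more genotypes, by over 0.1 (log2) from the median list. Of 19 naive pluripotency markers 18 had a peak at a gene end in WT and in 8 mutants, and all 19 did in R342C. Gene-end peaks were also found in WT at 7 of 10 fibroblast, 5 of 7 primitive endoderm and 8 of 8 trophoblast markers, so an accessible gene end did not mark a cell type in these lists.

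The label gene desert holds for protein-coding genes only. Of the 12892 sites, 2750 (21.3%) overlapped a noncoding gene or pseudogene, and 165 held the annotated start of a long noncoding RNA (lncRNA). A further check found 104 sites (0.807%) within 100 kb of immune receptor gene segments, which the table does not count as protein-coding. The 165 sites at lncRNA starts are the part of the deserts for which a sequence was given, as RefSeq windows from 250 bases before to 50 bases after the start. There were 184 such windows of 166 lncRNA genes, so some genes were counted with more than 1 window. Letters were searched on both strands for a 12-letter core of the CTCF motif (CCA and AG with 2 free letters between them, then 2 free letters and GGC), the octamer bound by OCT4 (ATGCAAAT) and the element bound by ESRRB (TCAAGGTCA). The CTCF core was in 6 windows (3.26%), against 2.44% of all 32544 promoter windows. The octamer was in 8 (4.35%), against 1.75%, and the ESRRB element in 1 (0.543%), against 0.412%. Base composition was not held equal in these comparisons. The median share of G and C was 51.7% in the 184 windows and 56.3% at protein-coding starts. These are counts of letter matches and not of bound sites.

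Of 6 windows shown, chosen after their values were seen, 2 belong to the strongest sites at lncRNA starts. The site at C330004P14Rik (window chr10:15791527-15791826, plus strand) stood at the 99.5th percentile of the WT list with a fold of 21.2 and lay 1020 kb from Nmbr. That of 1700030C10Rik (chr12:20815730-20816029, minus strand) stood at the 99.2nd percentile with a fold of 19.8. Both were found in all 9 mutant lists, where they stood at the 97.8th percentile or above. The sequences differ in base composition: the first holds 0 CpG dinucleotides and 48.7% G and C, the second 29 CpG and 72.7%. No searched motif was in either, so they are in lower case.
C330004P14Rik: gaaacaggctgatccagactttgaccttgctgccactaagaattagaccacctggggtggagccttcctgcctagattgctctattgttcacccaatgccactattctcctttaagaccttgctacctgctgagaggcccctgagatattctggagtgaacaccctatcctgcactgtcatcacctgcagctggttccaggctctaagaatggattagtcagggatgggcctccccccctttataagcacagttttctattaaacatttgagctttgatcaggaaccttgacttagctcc
1700030C10Rik: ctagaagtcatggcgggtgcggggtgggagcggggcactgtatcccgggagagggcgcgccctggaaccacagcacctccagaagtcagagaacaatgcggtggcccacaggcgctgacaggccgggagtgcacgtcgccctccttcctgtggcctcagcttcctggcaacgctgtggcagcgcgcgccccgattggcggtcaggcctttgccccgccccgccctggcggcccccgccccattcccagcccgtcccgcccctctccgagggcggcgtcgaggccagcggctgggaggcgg

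The next pair holds the CTCF core, in capitals. In Gm26901 (chr1:7398047-7398346, minus strand) the core lay inside the WT peak, a site of fold 16.3 found in all 9 mutant lists. In Gm35193 (chr13:60044949-60045248, minus strand) the core lay 44 bp beyond the edge of a weak WT peak of fold 3.31, which was found in Q418R and H455R and missing from the other 7 lists. The core lay inside the WT peak at 3 of the 6 lncRNAs that carry it, and 4 of those 6 sites were found in all 9 mutant lists.
Gm26901: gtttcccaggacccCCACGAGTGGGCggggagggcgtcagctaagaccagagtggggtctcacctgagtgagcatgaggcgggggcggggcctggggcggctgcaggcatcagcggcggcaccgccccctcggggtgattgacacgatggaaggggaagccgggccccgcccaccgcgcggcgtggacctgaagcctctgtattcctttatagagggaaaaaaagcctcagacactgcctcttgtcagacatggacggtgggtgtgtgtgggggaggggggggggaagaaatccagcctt
Gm35193: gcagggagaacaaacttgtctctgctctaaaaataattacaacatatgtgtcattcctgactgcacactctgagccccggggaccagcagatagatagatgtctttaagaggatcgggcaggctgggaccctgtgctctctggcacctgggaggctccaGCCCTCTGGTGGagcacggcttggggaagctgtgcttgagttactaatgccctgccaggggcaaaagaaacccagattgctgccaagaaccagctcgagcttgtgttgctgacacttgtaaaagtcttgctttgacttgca

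The last pair holds the octamer, in capitals. 4930545L08Rik (chr9:111918680-111918979, minus strand) is the start of a lncRNA 146 kb from Arpp21, at a site of fold 13.5 found in all 9 mutant lists. Gm35255 (chr3:34949977-34950276, plus strand) starts 297 kb from Sox2, which encodes a core pluripotency transcription factor, and its octamer is on the opposite strand. This site had a fold of 5.17 and was missing from R339Q and R377H. In both windows the octamer lay inside the WT peak.
4930545L08Rik: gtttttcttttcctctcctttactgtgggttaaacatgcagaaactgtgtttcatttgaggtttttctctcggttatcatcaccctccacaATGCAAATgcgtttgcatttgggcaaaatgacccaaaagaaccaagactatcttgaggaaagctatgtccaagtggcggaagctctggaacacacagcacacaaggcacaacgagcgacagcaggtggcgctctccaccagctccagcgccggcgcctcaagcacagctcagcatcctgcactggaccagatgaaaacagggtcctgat
Gm35255: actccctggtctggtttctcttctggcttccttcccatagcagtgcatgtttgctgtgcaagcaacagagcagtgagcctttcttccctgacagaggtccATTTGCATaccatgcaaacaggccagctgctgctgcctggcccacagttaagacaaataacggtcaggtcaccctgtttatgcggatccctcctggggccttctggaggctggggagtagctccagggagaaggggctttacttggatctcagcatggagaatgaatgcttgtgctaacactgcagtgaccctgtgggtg

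Sites at lncRNA starts were more often strong than other desert sites. Of the 165, 66 (40.0%, 32.5 to 47.9) were among the strongest 20% of WT peaks, against 23.5% of the other 12727 desert sites. They were also wider, with a median of 576 bp against 372 bp. A wide peak holds any given base more often, so the choice of these sites favours wide peaks. Width also goes with strength. In all 9 mutant lists 117 (70.9%) were found, against 63.3% of other desert sites of equal strength, a difference of 7.57 points (2.62 to 12.5). Weighted instead to the strength of the other desert sites, the contrast of other sites minus lncRNA starts was -5.23 points, with an interval that held 0 (-10.9 to 0.39). Width was not held equal in either contrast. The windows whose start lay in a desert site held a median of 6 CpG dinucleotides. In windows of desert lncRNA starts without a WT peak the median was 2, and at protein-coding starts it was 13.

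Accessible sites were sparse in deserts. The 1376 gaps between genes that left room beyond 100 kb on both sides had an inner length of 655 Mb, 27.3% of the 2398 Mb between the first and last genes of the chromosomes. They held 12872 sites, or 19.7 per Mb, against 89.2 per Mb elsewhere. The remaining 20 sites lay at chromosome ends. Gaps over 1 Mb held 12.1 sites per Mb and shorter ones 31.4. A desert with any site had a median of 7, and 253 had none. The longest gap with 0 sites was the 1.91 Mb between Tlr4, a receptor for bacterial lipopolysaccharide, and Brinp1, a neural gene, on chromosome 4. Sites were clustered, with a median of 4.19 kb to the next site, and 8557 (66.4%) had another within 10 kb. Only 130 were alone in their desert.

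Chromosomes differed in how much their deserts held. The number of sites per Mb of desert was lowest on chromosome 15 at 15.3 and highest on chromosome 9 at 29.8, with chromosome 13 next at 29.1. On chromosome 13 desert sites were 13.1% of all peaks, and on chromosome 19 they were 3.96%. The share of desert sites in the strongest 20% ran from 20.3% on chromosome 8 to 28.0% on chromosome 10. The share found in all 9 mutant lists ran from 40.2% on chromosome 15 to 50.9% on chromosome 1. These shares were not adjusted for strength. Chromosome 1 is among those with a shifted share of peaks, raised by 0.30 (log2) in R448Q and by 0.21 in K365T. The part of such shifts in the share found was not tested.

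By fold, desert sites were on average stronger than other sites. Fold is relative to an expected background, and 33.1% of WT fold values lay on the steps of a common background. Whether the background of the other values differed between deserts and elsewhere was not tested. Equal strength below therefore means equal fold, not equal reads. Their median fold was 5.03, against 4.63 for all other WT sites and 4.67 for nearer intergenic ones. Among the strongest 20% of WT peaks there were 3051 desert sites, 23.7% of the members (22.9 to 24.4), against 19.7% of other sites and 18.5% of nearer intergenic sites. At the top of the list the difference was larger on the ratio scale. Of the strongest 1%, 228 were desert sites, 1.77% of members (1.55 to 2.01), against 0.937% of other sites. At the other end, 13.4% of desert sites and 20.5% of other sites were among the weakest 20%. The share in the strongest 20% was higher for deserts on 19 of 19 chromosomes, and it was higher in each of the 10 lists when peaks were ranked within their own list.

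Outside genes, the share of the strongest sites was higher at greater distance. In the strongest 1% were 0.475% of sites at 1 to 10 kb from a gene, 0.816% at 10 to 50 kb and 0.975% at 50 to 100 kb. Inside the deserts the share was 1.15% at 100 to 200 kb, 1.97% at 200 to 500 kb, 3.25% at 500 kb to 1 Mb and 3.87% (2.38 to 5.91) beyond 1 Mb. Inside genes the share was 1.07%. The share in the strongest 20% reached 27.2% at 500 kb to 1 Mb and was 26.5% (22.7 to 30.5) beyond, where the median fold was 5.17 against 5.32. For the strongest 1%, the intervals of the last 2 classes overlap, as do those of 50 to 100 kb and 100 to 200 kb. The median fold had no step at the rule's limit of 100 kb. The first 100 sites inside it (100004 to 100963 bp) and the first 100 outside (99064 to 99980 bp) both had a median fold of 5.03. Their median widths were 375.5 and 336.5 bp, and 51 and 43 of them were found in all 9 mutant lists.

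**Figure D1:**
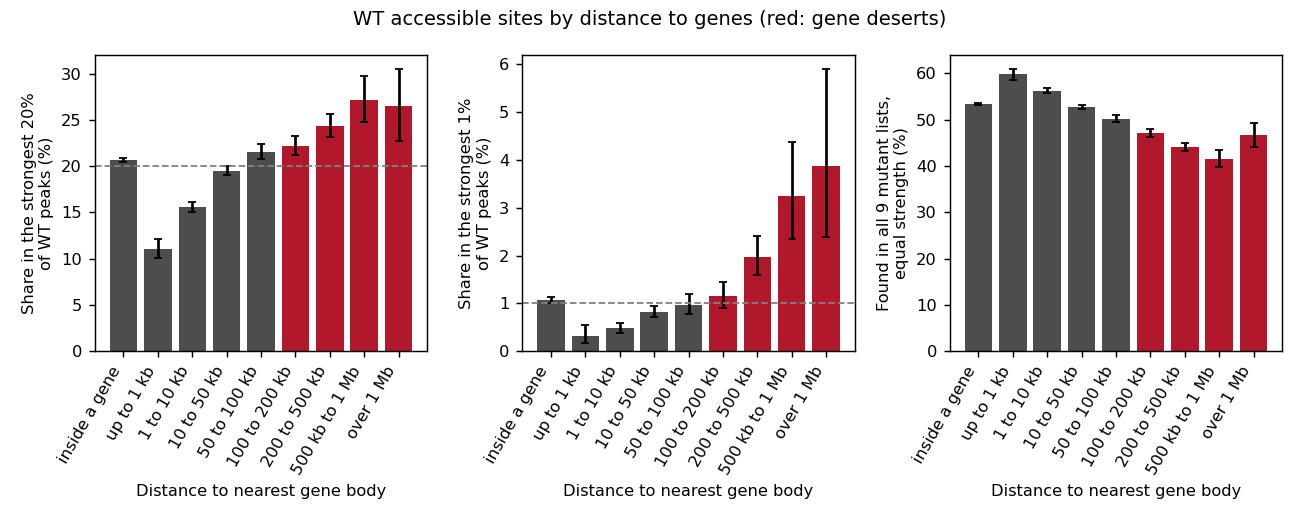
WT accessible sites by distance to the nearest protein-coding gene body (x axis; red, gene deserts; grey, nearer or genic sites). Bars give the share of sites in the strongest 20% (left) and strongest 1% (middle) of WT peaks and the share found in all 9 mutant lists, standardised to the strength of the desert sites (right); error bars are 95% counting intervals and dashed lines the share over all sites, and the share in the strongest 1% climbs from 0.475% at 1 to 10 kb to 3.87% beyond 1 Mb.

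Desert sites were narrow for their strength. Their median width was 374 bp, against 404 bp for other sites. At equal strength, with sites compared within 20 bins of WT fold, the geometric mean width was 400 bp in deserts and 456 bp elsewhere (log2 difference -0.19, -0.20 to -0.18). It was 434 bp in nearer intergenic sites (-0.12) and 588 bp at gene ends (-0.56). Deserts had the narrower sites on 19 of 19 chromosomes in each of these comparisons. The width ran with distance too, from 445 bp at 1 to 10 kb to 410 bp at 100 to 200 kb and 378 bp at 500 kb to 1 Mb.

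The mutant lists missed more desert sites than sites of equal strength elsewhere. Found means that at least 1 bp of the WT peak overlapped a peak of the mutant list. In R377C, 3159 of 12892 desert sites were missing, 24.5% (background, the share over all autosomal WT peaks, 20.9%), against 17.6% of other sites at equal strength, a difference of 6.95 points (6.29 to 7.60). R377H, with another change of the same residue, missed 3598 desert sites, 27.9% (background 26.0%), a difference of 5.65 points. R377C had the largest of the 9 differences at this setting, but not with lists of equal size, where K365T had 4.73 points and R377C 3.90, nor among the stronger 50% of peaks, where K365T had 3.78 and R377C 2.78.

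For K365T, 3903 desert sites were missing (30.3%, background 28.3%), 5.94 points above other sites. S354F missed 3447 (26.7%, background 24.3%), 5.83 points above, and R342C 3559 (27.6%, background 26.1%), 5.20 points above. In each of these mutants desert sites were missing more often on 19 of 19 chromosomes. The spread among chromosomes was wide, from 1.88 points on chromosome 9 to 11.7 on chromosome 17 in S354F.

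For H455R the difference was 3.95 points, with 2602 missing sites (20.2%, background 19.3%). For R339Q, the list with the fewest peaks, it was 3.56 points with 4472 missing sites (34.7%, background 35.1%). For Q418R it was 2.66 points with 3854 (29.9%, background 30.9%), higher in deserts on 17 of 19 chromosomes. For R448Q it was 0.95 points (0.25 to 1.64) with 3294 (25.6%, background 27.7%), higher on 13 of 19. In R339Q, Q418R and R448Q the unadjusted share was thus below the background, and the difference appears at equal strength. Against nearer intergenic sites all 9 differences were positive, from 3.06 points in R448Q (2.32 to 3.80) to 6.73 points in R377C. Whether the differences themselves differ between mutants was not tested, since each rests on 1 pooled list. The background coverage was lower in every mutant list than in WT, and its part in the missing shares was not tested.

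**Figure D2:**
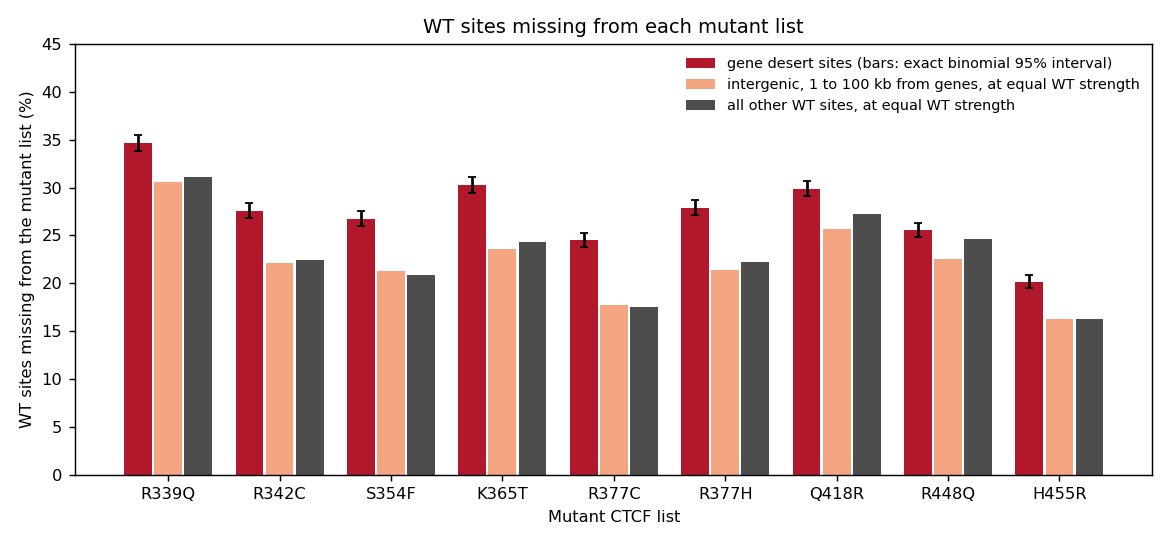
Percentage of WT sites missing from each mutant peak list (x axis, 9 CTCF mutants) for gene desert sites (red, with exact binomial 95% intervals), nearer intergenic sites (orange) and all other sites (grey), the last 2 standardised to the strength of desert sites. The red bar is the highest of the 3 in every mutant, by 6.95 points over other sites in R377C and by 0.95 points in R448Q.

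Peak width moved with this result. When the comparison was made at equal strength and equal width (each bin split into 5 classes of width), the difference from other sites was 4.47 points in R377C, 3.33 in K365T, 3.01 in R377H, 2.96 in S354F, 2.38 in R342C and 1.77 in H455R. It was 0.14 in R339Q (-0.54 to 0.82) and -0.27 in Q418R (-0.93 to 0.39), and R448Q turned to -1.63 (-2.32 to -0.94). Against nearer intergenic sites at equal strength and width, the 9 differences stayed above 0, from 1.26 points in R448Q (0.53 to 2.00) to 4.76 in R377C. With every list limited to the number of peaks of the smallest, the difference from other sites was 3.90 points in R377C and -0.02 in R448Q.

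Over all mutants together, 5860 desert sites were found in every one of the 9 lists, 45.5% (background 48.5%), against 53.6% of other sites at equal strength, a difference of -8.11 points (-8.73 to -7.49). Deserts were lower on 19 of 19 chromosomes, and at equal strength and width the difference was -4.15 points. At the other extreme 647 desert sites, 5.02% (background 5.42%), were missing from all 9 lists, against 4.34% at equal strength, a difference of 0.68 points (0.31 to 1.06). At equal strength and width that difference was -0.09 (-0.46 to 0.28). A further 1282 desert sites (9.94%) were missing from a single list, against 8.71% of other sites, not adjusted for strength.

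The share found in all 9 lists is low for the weakest sites and near its ceiling for the strongest, which limits the gap it can show at both ends. In the weakest bin the mean share missing over the 9 lists was 65.5% in deserts and 62.0% elsewhere. In the fifth of the 20 bins, at folds of 3.27 to 3.45, 5.80% of desert sites and 13.3% of other sites were found in all 9 lists. In the eleventh, at 4.68 to 5.03, it was 26.3% against 45.2%, and 45.4% of nearer intergenic sites. In the nineteenth, at 11.4 to 14.2, it was 98.6% against 99.1%. By distance, the share found in all 9 at equal strength fell from 56.2% at 1 to 10 kb to 50.2% at 50 to 100 kb and 41.6% at 500 kb to 1 Mb. Beyond 1 Mb it was 46.8% (44.2 to 49.4), on 517 sites.

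**Figure D3:**
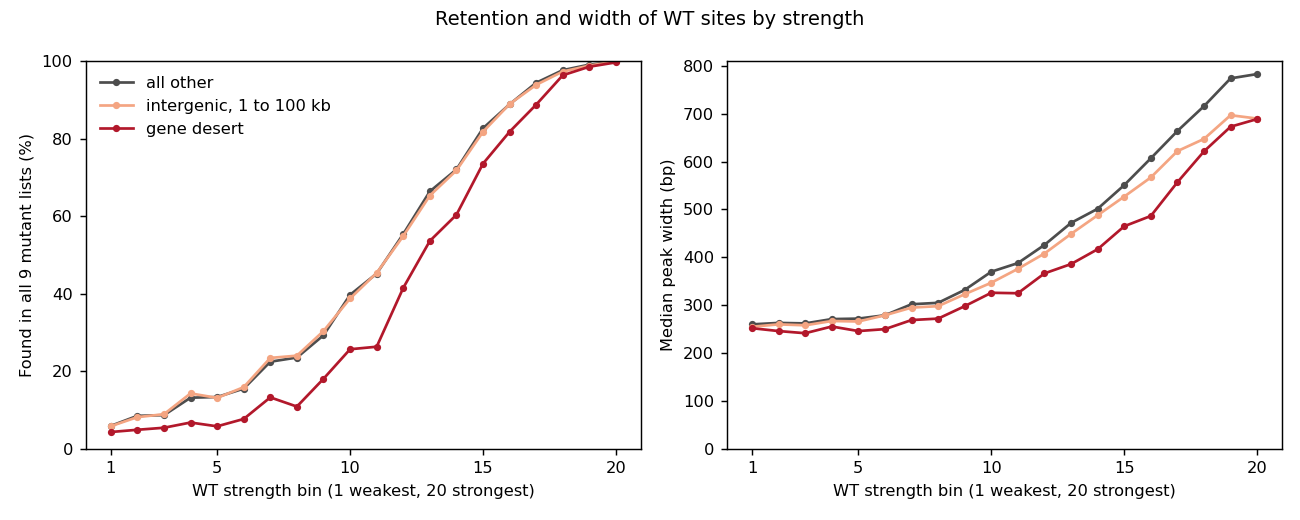
Share of WT sites found in all 9 mutant lists (left) and median peak width in bp (right) in 20 bins of WT strength (x axis, 1 weakest, 20 strongest), for gene desert sites (red), nearer intergenic sites (orange) and all other sites (grey). In the eleventh bin 26.3% of desert sites and 45.2% of other sites were found in all 9 lists, and the curves meet at the top.

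Almost all strong desert sites were present in every mutant. Of the 3051 in the strongest 20% of WT peaks, 2936 were found in all 9 lists. The other 115 (3.77%, 3.12 to 4.51; background 2.39%) were missing from 1 or more, where background is the share over all strong WT peaks, against 2.25% of strong sites elsewhere and 2.69% of strong nearer intergenic sites. R448Q missed 43 strong desert sites, 1.41% (background 0.890%), and R339Q 40, 1.31% (background 0.965%). K365T missed 21 (background 0.300%), R377H 17 (background 0.264%), R342C 15 (background 0.217%) and Q418R 15 (background 0.413%). S354F missed 11 (background 0.217%), R377C 9 (background 0.110%) and H455R 7 (background 0.113%). As a share of the strong desert sites, the 21 of K365T were 0.688% (0.427 to 1.05), against 0.261% of strong sites elsewhere, and the 9 of R377C were 0.295% (0.135 to 0.559), against 0.0914%. For Q418R it was 0.492% (0.275 to 0.810) against 0.405%. For S354F it was 0.361% (0.180 to 0.644) against 0.202% of strong sites elsewhere and 0.402% of strong nearer intergenic sites. All 228 desert sites in the strongest 1% were found in all 9 lists, as were all 1457 elsewhere.

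The strongest desert site was at chr16:78827745-78828279, 103 kb from Chodl, which encodes a membrane lectin, with a WT fold of 29.5. In the mutants its fold was 25.4 (Q418R) to 29.1 (R342C), and it stood above the 99.9th percentile of all 10 lists. The second lay 1065 kb from Cdh2, the gene of N-cadherin, with a fold of 28.8. Another of the 20 strongest, chr5:79679038-79679641, lay 1339 kb from Adgrl3, which encodes the adhesion receptor latrophilin 3, with a fold of 26.8. It stood between the 99.6th percentile in R342C and 99.98 in R377C. The site between the cadherin genes Cdh6 and Cdh9, chr15:15019272-15019854, lay 1709 kb from Cdh9. It stood at the 99.97th percentile in WT and at 97.3 in R339Q, the lowest standing of any of the 20 in any list, shared with the site 262 kb from Gjb5. The site chr14:59025713-59026300, between Fgf9, a growth factor gene, and 1700129C05Rik, had a fold of 27.4 in WT and 23.2 in R339Q. In H455R its fold was 33.7, at the 100th percentile of that list. All 20 were found in all 9 mutants, and their widths ran from 412 to 745 bp.

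The 10 strongest desert sites missing from a mutant list had WT folds of 11.6 to 17.6. Percentiles below place a peak within its own list, and between lists of different length they do not measure a change. The strongest was chr6:93305090-93305738 between Adamts9, a secreted metalloprotease, and Magi1, a scaffold protein of cell junctions, inside the lncRNA Gm46968. It stood at the 98.2nd percentile in WT and had no overlap in R448Q. In the other mutants its percentile was 50.5 in R339Q, 63.3 in Q418R, 67.3 in R377H, 73.5 in K365T, 74.0 in R342C, 83.7 in R377C, 85.1 in S354F and 94.2 in H455R. A site 155 kb from Agr3 and 235 kb from Ahr, the dioxin receptor, at chr12:35770260-35770896 was likewise missing from R448Q alone. Its percentile was 96.7 in WT, 43.5 in R339Q and 94.4 in H455R. Among the mutants both sites stood highest in H455R, and the site near Agr3 was also at 88.6 in R377C and 83.8 in S354F.

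The site chr5:82055853-82056370, 228 kb from Adgrl3, was missing from R339Q and R448Q. It stood at 95.4 in WT, 95.2 in H455R and 40.1 in R377H. The site chr9:52809240-52809671, 127 kb from AI593442, was missing from R339Q and stood at 94.9 in WT and 49.2 to 83.7 in the other mutants. A site 257 kb from Lnpk, a gene of the endoplasmic reticulum beside the Hoxd cluster, was the only one of the 10 missing from 3 lists. It lay at chr2:74257134-74258224, was 1091 bp wide, had a WT percentile of 91.2, and was absent from R342C, Q418R and R448Q. The site 154 kb from Epha7, an ephrin receptor gene, at chr4:28658749-28659158 was missing from R342C. It stood at 92.6 in WT and 92.3 in Q418R, and at 16.6 (R377C) to 59.6 (H455R) elsewhere. Of the 10, R448Q lacked 6, R339Q 3, R342C 3 and Q418R 1, and the other 5 mutants 0.

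For the mutants that lacked none of these 10, the strongest missing desert site stood lower in WT. In R377H it was chr10:6109432-6109960, 187 kb from Rgs17, a regulator of G protein signalling, at the 89.5th percentile in WT and 37.4 (R377C) to 90.5 (Q418R) in the other mutants. In S354F it was chr5:149911943-149912286, 106 kb from Rxfp2, a relaxin family receptor gene, at 88.0 in WT and 63.9 (R377H) to 91.0 (R448Q) elsewhere. In K365T it was chr13:90697257-90697598, 186 kb from Atp6ap1l, at 87.2 in WT and 30.3 (R448Q) to 82.3 (H455R) elsewhere. These 3 sites were missing from that mutant alone and present, some of them high, in the other 8.

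The H455R list lacked chr10:56795333-56795881, 405 kb from Gja1, which encodes connexin 43. This site stood at the 86.8th percentile in WT, at 94.6 in Q418R and at 31.5 in R377H. The R377C list lacked chr12:65828112-65828629, 454.7 kb from Rpl10l, which stood at 84.5 in WT. It was also missing from R339Q and Q418R and stood at only 12.8 (R342C) to 39.2 (K365T) in the other 6 mutants. The strongest desert site missing from all 9 lists was chr7:136333363-136333672 between Mki67, the proliferation marker, and Mgmt, a DNA repair enzyme, with a WT fold of 8.33.

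**Figure D4:**
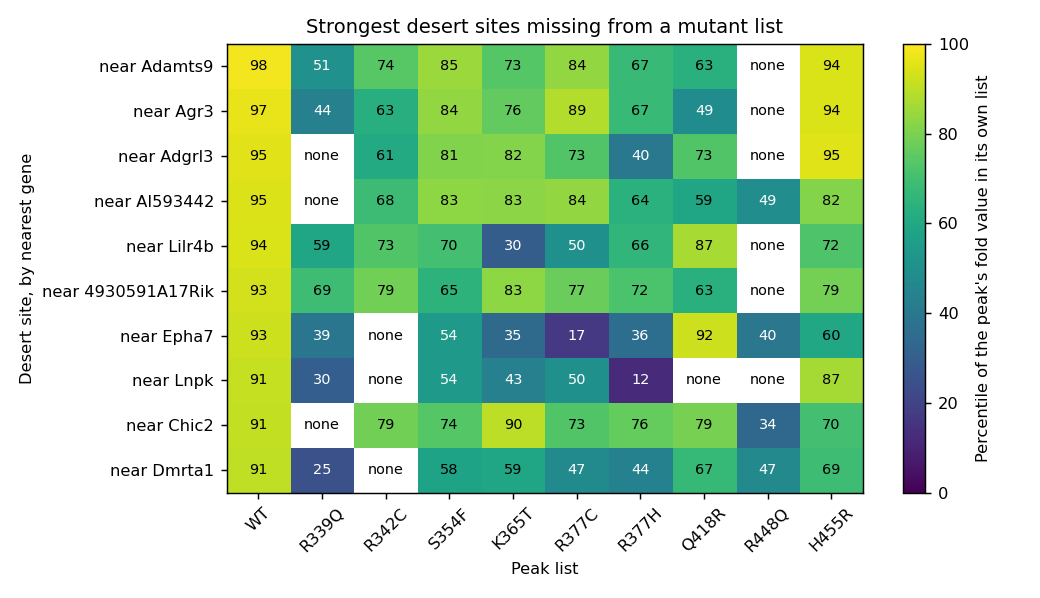
Percentile of the overlapping peak's fold value within its own list (colour and number) for the 10 strongest gene desert sites that were missing from 1 or more mutant lists (rows, by nearest gene) in the WT list and 9 mutant lists (columns); white cells marked none have no overlapping peak. The WT column runs from 90.5 to 98.2, R448Q has 6 empty cells, and H455R has none.

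Mutant lists also held desert peaks without a WT overlap. R448Q had 2903 among its 12507 desert peaks, 23.2% (background, the share over all autosomal peaks of that list, 14.8%), against 12.9% of its other peaks at equal strength in the R448Q list, a difference of 10.3 points (9.60 to 11.0). In R377H 1898 of 11279 had none (16.8%, background 12.2%), 6.27 points above its other peaks, and in Q418R 1274 of 10405 (12.2%, background 7.97%), 6.13 points above. H455R had 2060 (16.7%, background 13.2%, 5.44 points), K365T 1354 (12.8%, background 8.98%, 5.02 points) and R339Q 914 (9.76%, background 7.16%, 3.94 points). For R342C there were 1275 (12.0%, background 9.77%, 3.57 points), for R377C 1344 (12.2%, background 10.9%, 3.22 points) and for S354F 1055 (10.1%, background 8.83%, 2.92 points). The excess in deserts held on 19 of 19 chromosomes in 8 mutants and on 18 in Q418R. At equal strength and width it was between 1.77 (R377C) and 8.37 points (R448Q). Among the stronger 50% of each mutant list it was smaller, from 0.35 points in R342C (0.03 to 0.67) to 4.76 in R448Q.

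These extra peaks were weak. In R448Q 29 of the 2903 were among the strongest 20% of the list, in R377H 11, and in R339Q, R342C and R377C 0. Over all autosomal peaks without a WT overlap, 154 of 21153 in R448Q and 64 of 17493 in R377H were that strong. The strongest in R448Q, chr1:194033897-194034888, lay 585 kb from Plxna2, a semaphorin receptor gene, at the 92.7th percentile, and was absent from H455R and WT. In R377H the strongest was chr5:116963021-116963511, 128 kb from Suds3, at the 92.0th percentile. In Q418R the peak chr1:35266402-35266968 stood at the 85.9th percentile and was found in no other list. In H455R it was chr8:89255299-89255919, 211 kb from Sall1, a zinc finger transcription factor gene, at the 86.0th percentile. The whole chromosome had a raised share of peaks for 2 of these sites, by 0.30 (log2) on chromosome 1 in R448Q and 0.25 on chromosome 8 in H455R. Chromosome 5 in R377H and chromosome 1 in Q418R were not shifted by over 0.1. Desert peaks made up 8.76% of the R448Q list, 7.65% of the WT list and 7.45% (R377C) to 8.10% (Q418R) of the others. R448Q was also the list with shifted peak shares on the most chromosomes. On the 9 chromosomes without a shift in any list, desert peaks were 8.55% of the R448Q list (8.31 to 8.78) and 7.83% of the WT list (7.63 to 8.04).

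Among single deserts, the most sites were in the 0.709 Mb between 1810013L24Rik and Grin2a, a glutamate receptor gene, with 104 sites, 19 of them strong. The 0.789 Mb between Mn1, a transcriptional cofactor, and Cryba4, a lens crystallin, had 103 sites and 23 strong ones, the highest number of strong sites. Then came Cd83 to Jarid2, a Polycomb cofactor, with 90, Sall3 to Galr1 with 83, and Enc1 to Arhgef28 and Plekhb2 to Hs6st1 with 79 each. The desert between Sox2 and Atp11b had 76 sites and that between Med13l and Tbx3 68. Strong sites were also many between Gm4868 and Tmem132c (22 of 67) and between Arpp21 and Pdcd6ip (20 of 68). The share found in all 9 lists was 57.3% at Mn1, 52.6% at Sox2 and 40.3% at Gm4868. The longest deserts held few sites for their length, as the 4.54 Mb between the protocadherin genes Pcdh20 and Pcdh9 with 30 sites, 10 of them strong, and 6.91 per Mb. The site farthest from any gene, chr14:82238181-82238690, lay 2205 kb from Pcdh17, with a fold of 8.33, and was found in all 9 lists.

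**Figure D5:**
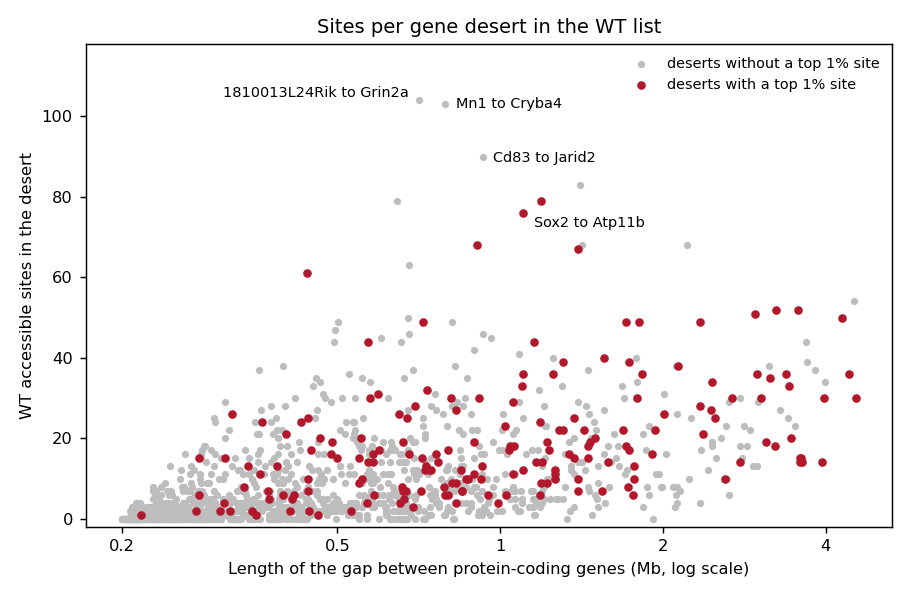
Number of WT accessible sites (y axis) in each of 1376 gene deserts against the length of the gap between the flanking protein-coding genes (x axis, Mb, log scale); red points are the 179 deserts with a site in the strongest 1% of WT peaks. The deserts with the most sites, 104 and 103, had gaps of 0.709 and 0.789 Mb, and the longest gap of 4.54 Mb held 30.

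Some deserts lacked more sites in a mutant than their strength gave. Of the 466 deserts with 10 or more sites, the excess of missing sites over the number given by strength was taken for each mutant where it was largest. For Q418R this was the desert between Gnai1, a G protein subunit, and Magi2, a synaptic scaffold, where 18 of 30 sites were missing, against 7.41 given by strength, and the other mutants missed 3 to 9. In S354F the Vrk2 to Ccdc85a desert lacked 13 of 30, against 3.75, and the others 3 to 9. In K365T 24 of 49 sites were missing between Cntn5, a neural adhesion gene, and Jrkl, against 11.6, with 10 to 16 in the others. Between Rps24 and Zmiz1, R448Q lacked 27 of 45, against 11.3, and the others 10 to 21. R377H lacked 22 of 37 between Clec14a and Sec23a, against 9.58, and the others 7 to 20, the 20 being R339Q. In these 5 deserts the mutant named missed the most sites of the 9, but each was picked as the highest of 466 and carries no test. In contrast, the Gm4868 to Tmem132c desert was the highest for both R377C (20 of 67) and H455R (25), and all 9 mutants missed 14 or more there. For R342C the largest excess was between Cd83 and Jarid2, with 32 of 90 sites missing, against 22.4, where R339Q lacked 36 and the other 7 mutants 17 to 34. R339Q lacked 34 of 63 sites between 4931429L15Rik and Gm4791, where R448Q lacked 28. The deserts with more missing sites than strength gives were 326 of 466 in R377C and 238 in R448Q.

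A strong desert site had 1 of 1165 protein-coding genes as its nearest gene, 5.67% of the 20556 in the table. Pdcd6ip, a gene of endosomal sorting, was nearest to 17 strong sites, Cryba4 to 15, Tbl1xr1, a corepressor subunit, to 14, and Tle3, a Groucho corepressor, to 12. Nearness on the line of the chromosome does not say which gene a site acts on.

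Pluripotency genes were followed from a list of 19, 18 of them on the chromosomes used. For 6 of the 18 a strong desert site was nearest. Sox2 had 57 desert sites and 11 strong ones, Tbx3, a T-box factor of naive cells, 41 and 9, and Nr5a2, an orphan nuclear receptor that binds the Pou5f1 promoter, 22 and 7. The Krüppel-like factor genes Klf5 and Klf4 had 13 and 16, with 6 and 3 strong, and Tcl1 had 1. All of these strong sites were found in all 9 lists, as were 2936 of all 3051 strong desert sites. Of the 151 desert sites nearest to a gene of this list, 91 (60.3%, 52.0 to 68.1) were found in all 9, against 49.8% of desert sites of equal strength. These sites belong to 7 genes, with 57 at Sox2 and 41 at Tbx3, and sites are clustered. The interval counts them as independent and width was not held equal, so it is no test of pluripotency genes.

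The strongest Sox2 site, chr3:34795312-34796257, lay 143 kb away with a fold of 20.3, at the 99.3rd percentile. The next was chr3:34912728-34913331 at 260 kb with a fold of 15.9. The 8 desert sites within 120 kb of Sox2 were weak, with folds of 2.32 to 6.09 and a median of 3.49, and 5 of them were found in all 9. At Tbx3 the strongest, chr5:119309921-119310716, lay 360 kb away with a fold of 19.9. At Klf4 it was chr4:55918047-55918599, 386 kb away, with a fold of 15.7. Each of these 4 named sites was found in all 9 lists.

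Of 113 developmental transcription factor genes, 61 (54.0%) were nearest to a strong desert site. Next to Sox2 and Tbx3 stood the proto-oncogene Myc with 33 desert sites and 11 strong ones, its relative Mycn with 32 and 9, the zinc finger gene Sall3 with 31 and 8, and the homeobox genes Irx1 with 19 and 7 and Nkx6-1 with 20 and 7. Of the 11 strong Myc sites 9 were found in all 9 mutants, and of the 7 at Nkx6-1 6 were. Over the list 46.8% of 857 sites were found in all 9, against 45.6% of desert sites at equal strength.

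Of 93 cell adhesion and synapse genes, 58 (62.4%) were nearest to a strong site. Cdh2 had 38 sites and 10 strong ones, Cntn5, a contactin, 30 and 9, Cntnap5b, a neurexin relative, 30 and 9, and Pcdh9 24 and 9. All 10 strong sites at Cdh2 were found in all 9 mutants. At Epha7 4 of 6 strong sites were. Of the 843 sites of the list 46.0% were found in all 9, against 46.8% at equal strength.

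Signalling ligands and receptors had 23 of 58 genes (39.7%) nearest to a strong site. The morphogen gene Shh had 12 desert sites and 4 strong ones, of which 3 were found in all 9 mutants. Fgf9 had 13 and 4, with 2 of the 4 found in all 9, and Bmp2 11 and 4, all 4 found. The lists were drawn up with results of these data known and with genes known to flank deserts. Their shares are a description, beside 5.67% over all genes. The counts of strong sites found in all 9 lists at single genes stand beside 2936 of 3051 over all strong desert sites.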

How the data were processed

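Accessible chromatin was measured by Omni-ATAC in 20 samples of 10 genotypes. Per the labels' protocols, 50000 cells entered a reaction and about 50 M paired reads of 150 bp were planned. Tools listed in the submitters' processing notes are Bowtie2, deepTools, MACS2 and Trim Galore, with the build mm10. Not given in the sources used here are their versions, any shift of read ends, the treatment of duplicates and the cut-off for calling. For each genotype the authors deposited a single list, pooled over 2 replicates, and its value column was read as the fold enrichment, a ratio of observed to expected coverage by MACS2. Depth was judged only from the background coverage implied by the steps of that deposited fold.

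Distances were taken to 20556 protein-coding genes of the RefSeq table. In that table, 105 protein-coding genes placed in the first 3 Mb of chromosomes 1 to 19, where no genome sequence is assembled, were taken as scaffold genes and left out. A few scaffold genes at other positions may remain. Overlaps, strength bins and intervals were computed with Python 3.11.15, numpy 2.4.6, pandas 2.3.3 and scipy 1.17.1. Shares have exact Clopper-Pearson intervals. Differences at equal strength were standardised over 20 bins to the strength of desert sites, and were called where the 95% interval excluded 0. PCR reads carry no molecular identifiers. Each genotype has 1 pooled list, so intervals cover counting error over peaks only. The overlap and standardisation steps were tested on simulated data and against bedtools.

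Named sites followed a rule: the 20 strongest sites and the 10 strongest missing from a mutant, at most 1 per desert, the strongest peak per mutant without a WT overlap, the deserts with the most sites or strong sites, the desert with the largest excess of missing sites per mutant, and list genes nearest to a strong site. Sequences, the farthest site, the longest deserts, the other nearest genes and the sites of Sox2, Tbx3 and Klf4 were chosen after values were seen. Some of the sites under the rule are not reported here. The members and gene lists were chosen with earlier results of these data known. The alternatives were the distance, genes, overlap, bins, width, chromosomes, list size and peaks used. Signal tracks were not used here.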

Additional observations from a re-analysis of the deposited data

Results flagged for a closer look

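The X chromosome was outside the comparisons above. It held 412 WT peaks more than 100 kb from protein-coding genes, 12.6% of its 3259 peaks, against 7.65% on the autosomes, and 96 of them (23.3%) were as strong as the strongest 20% of autosomal peaks. Their median width was 364 bp. K365T missed 151 of them, 36.7% (exact binomial 95% interval 32.0 to 41.5), against 29.8% of autosomal desert sites at equal strength. R377H missed 33.3% (28.7 to 38.0) against 27.3%, and H455R 25.5% (21.3 to 29.98) against 20.03%. Q418R went the other way, with 89 missing, 21.6% (17.7 to 25.9), against 29.6%. For the other 5 mutants the interval held the autosomal value. The share missing over all X peaks was not taken. Whether these differences belong to the desert sites or to the whole X chromosome was therefore not tested. No sample lacked the mutant or WT transgene and all were labelled as treated. There is thus no level without a transgene and no untreated level to set beside these counts.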

How the results depend on the processing

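No paired analysis was possible because each genotype has 1 list that pools both replicates, and for the same reason no replicate could be left out. Of 336 values recomputed under alternatives, 321 kept their direction and their side of the threshold. The 10 bins within each chromosome were chosen after seeing the data and changed no call. The number of desert sites was 21812 beyond 50 kb, 6559 beyond 200 kb, 1985 when noncoding genes also defined deserts, 7130 among the stronger 50% of peaks and 5393 without shifted chromosomes. The difference of R448Q from other sites was 0.24 points with 50% overlap, 0.0553 beyond 50 kb and 0.38 with 50 bins, each with an interval that held 0, and it was -0.0235 with lists of equal size and -1.63 at equal width. At equal width the difference was also -0.27 in Q418R, 0.14 in R339Q and -0.0887 for sites missing from all 9 lists. That last difference was 0.55 when noncoding genes defined deserts and 0.12 among the stronger 50%. The cause of the dependence on width was not tested. Among the stronger 50%, the differences in missing share from other sites were 1.42 (Q418R) to 3.78 points (K365T). The part of depth in the missing shares was not tested.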
